A study of Mus musculus with 16 samples.

Results

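The genes described here are 9 of the 52636 gene identifiers in the count table: the Snail family repressors Snai1, Snai2 and Snai3, the Zeb repressors Zeb1 and Zeb2, the classical cadherins Cdh1, Cdh2 and Cdh3, and Epcam. They were found by matching Ensembl identifiers to GENCODE M21 symbols, and each symbol matched 1 identifier. Snai3 had been selected on its measured values after induction in earlier work on these libraries, so its values between the groups are given as a description, with no test. The p-values of the other members come from a fit across all tested genes and describe that fit, since the set was proposed with results of these data in view.

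RNA was measured in mouse embryonic stem cells of the line CRAFR26, which carries a cRAF kinase construct that is switched on by 4-hydroxytamoxifen (4OHT) and activates the ERK pathway. The cells were grown in N2B27 medium with 2i/LIF, that is 3 µM of the GSK3 inhibitor CHIR99021, 1 µM of the MEK inhibitor PD0325901 (PD03) and 1000 U/ml LIF. In every group the FGF receptor inhibitor PD173074 (PD17, 250 nM) had taken the place of PD03 for 48 h. Uninduced cells (0h) were set beside cells given 250 nM 4OHT for 2 h (2h) or 4 h (4h), and beside cells that were induced for 4 h and then received a MEK inhibitor for 2 h more (rev). There were 4 libraries per group, 2 replicates of clone 4 and 2 of clone 8, and nothing beyond the labels says that replicates came from separate cultures, so p-values measure the spread between these libraries. The design had no vehicle-treated culture and none left for 6 h without MEK inhibitor.

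Snail and Zeb proteins are zinc-finger repressors that bind E-box motifs, and the Cdh1 gene is the best known target of both families. Cdh1 encodes E-cadherin, which joins epithelial and pluripotent stem cells to one another through calcium-dependent contacts linked to the actin cytoskeleton by catenins. In the embryo, Snail genes are switched on as epiblast cells leave the epithelium at the primitive streak, and a shift from E-cadherin to N-cadherin (Cdh2) accompanies that epithelial-to-mesenchymal transition (EMT).

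Library totals ranged from 2172651 to 12680303 counts (median 6502783), and the 8 most abundant gene models took 42.0% to 80.4% of them. That share averaged 54.1% ± 9.31 at 4h and 65.9% ± 10.6 in rev (SD, n = 4). Levels are CPM, read counts brought to a common library size after scaling by TMM, a composition factor, and 3 counts, taken as the detection floor, equal 0.213 to 1.35 CPM depending on the library. All 8 pluripotency markers were detected in every group, with summed levels of 1635 to 2312 CPM. At 4h against 0h, 4 of these 8 were called higher and 3 lower by edgeR, beside 17.2% and 16.8% of all tested genes. The 8 fibroblast feeder markers summed to 3.07 to 9.92 CPM, with Postn and Dcn at 0 counts in all 16 libraries, and were highest in rev (4.16 to 9.92 CPM, against 3.28 to 4.92 at 0h).

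Of the 9 genes, 7 passed the low-count filter and were tested, and Snai2 and Zeb2 did not. Before induction the order of levels per kb of exon was led by Cdh1 (96.2 ± 12.4 CPM per kb), followed by Epcam (11.9 ± 1.25), Cdh3 (6.15 ± 1.29), Zeb1 (1.86 ± 0.270) and Snai1 (1.00 ± 0.363), each mean ± SD over 4 libraries. Cdh2 (0.374 ± 0.152 CPM per kb), Snai3 (0.371 ± 0.391) and Snai2 (0.194 ± 0.136) followed without separating beyond their spread, and Zeb2 was last (0.00340 ± 0.00681). The uninduced cells therefore held E-cadherin mRNA far above the other members and all 5 repressors at low levels. At 4h, Snai3 stood next to Epcam with 11.8 ± 3.22 CPM per kb, against 12.3 ± 0.901 for Epcam, within their spread. In rev, Snai1 (3.96 ± 1.11 CPM per kb) stood above Snai3 (2.56 ± 0.882), within their spread.

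**Figure D1:**
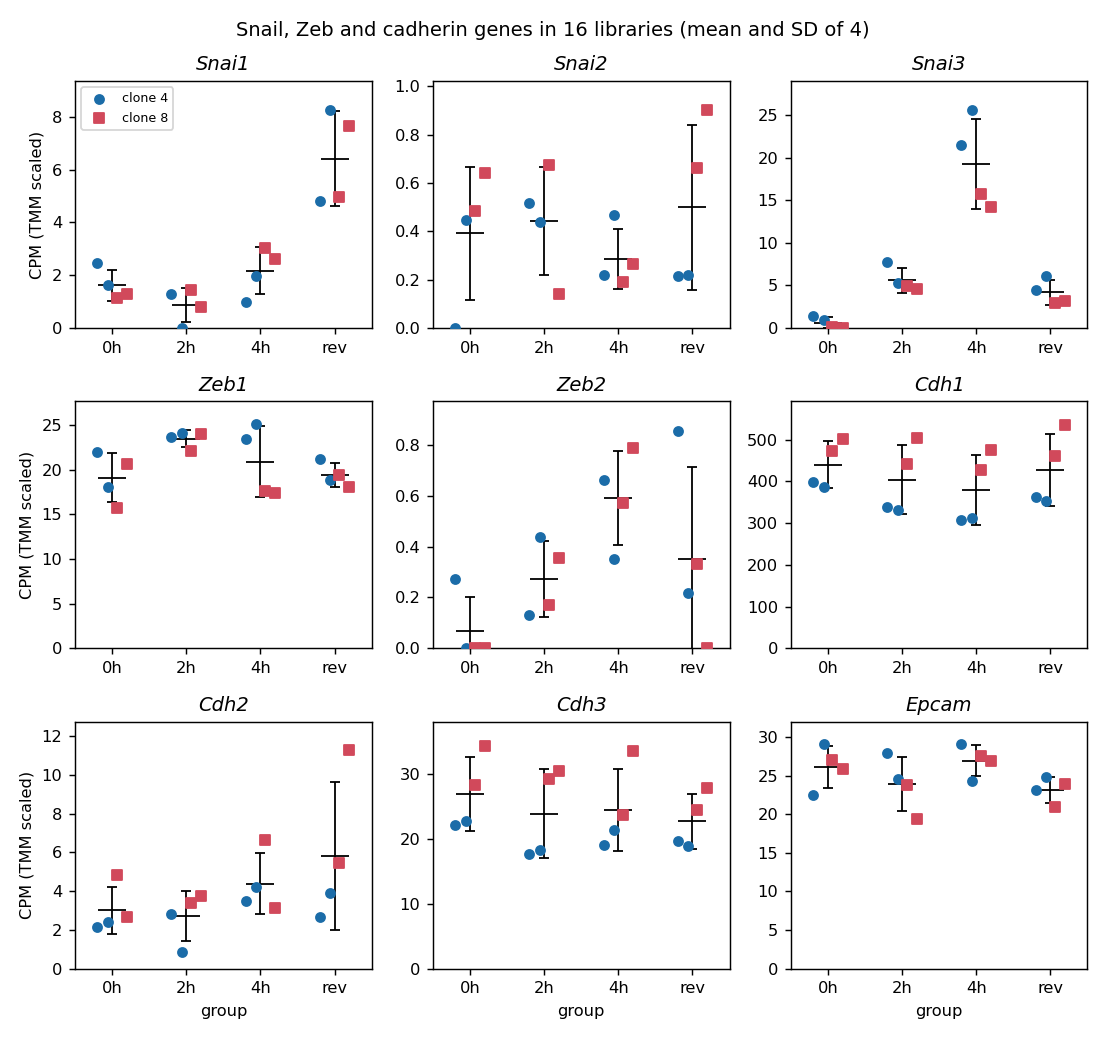
Level of each of the 9 genes in the 16 libraries, in CPM on a linear axis from 0, by group. Circles are clone 4, squares clone 8, and black lines the mean and SD of 4 libraries (the SD bar of Zeb2 in rev is clipped at 0): Snai3 peaks at 4h, Snai1 is highest in rev, and the clone 8 squares lie above the clone 4 circles for Cdh1 and Cdh3 in all 4 groups.

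E-box motifs are the sequences that the Snail and Zeb zinc fingers bind, so the start sites of the members were searched for them. The RefSeq promoter table (GRCm38.p6, 250 bases before to 50 after each start) held 3 of the 9 genes, Snai1, Epcam and Zeb2. The E-box CANNTG was counted, and within it the 6 letters CAGGTG or their reverse complement CACCTG, which Snail and Zeb proteins prefer. The windows of Snai1, whose own mRNA was higher in rev, and of Epcam, which did not pass the test in any comparison of groups, are printed 5′ to 3′ with each CANNTG match in capitals.
Snai1 (chr2:167537945-167538244, plus strand): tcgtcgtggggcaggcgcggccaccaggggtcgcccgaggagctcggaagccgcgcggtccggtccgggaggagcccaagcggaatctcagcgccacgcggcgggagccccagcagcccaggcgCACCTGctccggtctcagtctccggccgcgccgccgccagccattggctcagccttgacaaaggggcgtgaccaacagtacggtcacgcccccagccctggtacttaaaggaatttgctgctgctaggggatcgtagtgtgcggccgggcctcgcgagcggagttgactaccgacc
Epcam (chr17:87635729-87636028, plus strand): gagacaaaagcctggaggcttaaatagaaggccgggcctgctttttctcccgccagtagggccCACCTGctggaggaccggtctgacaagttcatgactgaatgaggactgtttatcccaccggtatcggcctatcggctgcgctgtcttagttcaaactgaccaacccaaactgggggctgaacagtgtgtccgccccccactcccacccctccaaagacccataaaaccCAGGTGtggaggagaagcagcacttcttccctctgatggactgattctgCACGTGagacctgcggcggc
The Snai1 window held 1 E-box, CACCTG, 126 bases before the start. Epcam held CACCTG 187 bases before, CAGGTG 19 bases before and CACGTG 31 bases after its start. None of the 4 windows of Zeb2 held a CANNTG. Over all 32851 windows of this length, 20.21% held CAGGTG or CACCTG, 2.88% held at least 2 of these, and 72.31% held some CANNTG, so a match is a description of the letters and not a binding site.

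Snai3 (ENSMUSG00000006587, GRCm38 chr8:122454208-122460733, minus strand), the least studied Snail family repressor, was the member with the largest differences between groups. It had 1.36 and 0.895 CPM in clone 4 and 0.161 and 0 CPM in clone 8 at 0h, that is 5, 6, 1 and 0 counts. At 2h it had 7.77 and 5.26 CPM in clone 4 and 4.90 and 4.54 CPM in clone 8. All 4 libraries at 2h lay above all 4 at 0h. At 4h the values were 21.4 and 25.6 CPM in clone 4 and 15.8 and 14.2 CPM in clone 8, and in rev 4.48 and 6.08 CPM in clone 4 and 2.98 and 3.16 CPM in clone 8. The rev libraries therefore lay below every 4h library and above every 0h library, and they overlapped the 2h libraries. The means were 0.603 ± 0.636, 5.62 ± 1.46, 19.3 ± 5.25 and 4.17 ± 1.44 CPM at 0h, 2h, 4h and rev (SD, n = 4). As a description, fitted log2 fold changes (log2FC) were 3.58 (SE 0.33) at 2h and 5.26 (SE 0.27) at 4h against 0h, and -2.24 (SE 0.18) for rev against 4h. In these bulk libraries, more cells with the transcript and more transcript per cell cannot be told apart.

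The clones began from different Snai3 counts, 11 in the pooled clone 4 libraries at 0h and 1 in those of clone 8. The depth-scaled ratio of pooled counts at 4h to 0h was 22.1 in clone 4 (95% counting interval 12.3 to 44.7). For clone 8, the single count gave a ratio of 235 with an interval of 41.5 to 9361. Both intervals cover counting error only, and since Snai3 was selected on such values they describe them and test nothing. The genes beside Snai3 moved far less: Rnf166, 5414 bases away, went from 6.85 ± 0.890 to 8.88 ± 0.438 CPM between 0h and 4h (log2FC 0.40, SE 0.15, edgeR adjusted p = 0.0418), and Mvd, 10786 bases away on the other side, had 20.1 ± 0.801 and 19.8 ± 1.99 CPM.

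Snai1 (ENSMUSG00000042821, GRCm38 chr2:167538195-167542814, plus strand) encodes Snail, the family member that is required for gastrulation. At 0h it had 2.44 and 1.64 CPM in clone 4 and 1.13 and 1.28 CPM in clone 8. At 2h it had 1.29 and 0 CPM in clone 4 and 1.44 and 0.781 CPM in clone 8, and the library at 0 is the shallowest. At 4h it had 0.990 and 1.99 CPM in clone 4 and 3.04 and 2.63 CPM in clone 8. These 3 groups overlapped. In rev, Snai1 had 4.80 and 8.25 CPM in clone 4 and 4.97 and 7.66 CPM in clone 8, above every library of the other groups. The counts behind these rev values were 45, 38, 30 and 17, against 0 to 17 in the other 12 libraries.

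Snai1 rose from 2.16 ± 0.893 CPM at 4h to 6.42 ± 1.79 CPM in rev (log2FC 1.59, SE 0.30, edgeR adjusted p = 0.000205, higher in 4 of 4 libraries). It also rose from 1.62 ± 0.588 CPM at 0h to rev (log2FC 1.99, SE 0.32, edgeR adjusted p = 2.16e-05); this comparison shares the rev libraries with the first. Against 0h it did not pass the test at 2h (log2FC -0.52, SE 0.41, edgeR adjusted p = 0.387) or at 4h (log2FC 0.40, SE 0.38, edgeR adjusted p = 0.444). Within clones, the 4h against 0h log2FC was -0.39 (SE 0.51) in clone 4 and 1.22 (SE 0.51) in clone 8. In clone 8 both 4h libraries lay above both at 0h, and the difference between clones was not called (edgeR adjusted p = 0.368). With the share of the 8 most abundant models as a covariate, the rev against 4h difference was 1.00 (edgeR adjusted p = 0.0492). By clone, the rev against 4h log2FC was 2.03 (SE 0.37) in clone 4 and 1.01 (SE 0.42) in clone 8, and the difference did not pass the test (edgeR adjusted p = 0.874). The nearest gene on the lower side, Rnf114, 22022 bases away, had a log2FC of 0.11 (SE 0.08, edgeR adjusted p = 0.402) for rev against 4h, and was itself called higher in rev against 0h (0.25, SE 0.08, edgeR adjusted p = 0.0245).

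Markers of other cell types also differed in rev, where Snai1 rose, and those that follow are named after their values were seen. Of the 3 neural markers tested, Sox1 (3.51 ± 1.13 CPM in rev, log2FC 0.87, edgeR adjusted p = 0.0471) and Nes (26.2 ± 2.82 to 33.8 ± 8.19 CPM, 0.32, 0.0228) were higher than at 4h. Pax6 was not called there, and 7.93% of all genes were higher. The 4 neural markers summed to 32.6 to 47.8 CPM in rev, 28.0 to 34.4 CPM at 4h and 26.1 to 42.3 CPM at 0h. Against 0h, Sox1 (log2FC 1.12, edgeR adjusted p = 0.00855) and Pax6 (1.34, 0.0336) were higher and Nes was not called, beside 12.4% of all genes higher. Of the 2 fibroblast feeder markers tested, Col1a1 was higher than at 0h (0.519 ± 0.252 to 1.98 ± 0.508 CPM, log2FC 1.93, edgeR adjusted p = 0.00136). The other was not called. Col1a1 was already higher at 2h against 0h (1.57, edgeR adjusted p = 0.00603), when Snai1 was not called. The mesoderm and primitive streak markers Tbxt (-1.89, edgeR adjusted p = 5.36e-07) and Eomes (-0.53, 0.0472) were lower than at 4h, beside 8.43% of all genes lower. Of 2 trophoblast markers tested, Tfap2c was higher than at 4h (0.44, edgeR adjusted p = 0.00225) and lower than at 0h (-0.29, 0.0306). Cdx2 was higher than at 0h (1.66, edgeR adjusted p = 0.000867). The part of such cells in the Snai1 values was not tested.

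Snai2 (ENSMUSG00000022676, GRCm38 chr16:14705852-14709385), which encodes Slug, had 0 to 8 counts per library and 3 or fewer in 11 of 16. Its group means were 0.393 ± 0.275, 0.443 ± 0.224, 0.285 ± 0.125 and 0.499 ± 0.342 CPM at 0h, 2h, 4h and rev (SD, n = 4), and no difference was detectable at this depth. The depth-scaled ratio of pooled counts at 4h to 0h was 0.648 (95% counting interval 0.230 to 1.72). The make-up of the Snail family can be read per kb within each library. Snai1 made up 65.0% ± 6.17 of the 3 genes at 0h and Snai3 19.0% ± 17.0 (SD, n = 4, from 11 to 20 counts per library). Snai3 made up 82.6% ± 9.23 at 2h and 88.2% ± 5.92 at 4h, when Snai1 made up 12.3% ± 8.80 and 10.8% ± 5.90. In rev, Snai1 again held the larger part with 58.3% ± 6.42, against 37.9% ± 8.66 for Snai3. The summed level went from 1.57 ± 0.617 to 4.21 ± 1.15, 13.3 ± 2.94 and 6.77 ± 1.64 CPM per kb over the 4 groups.

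**Figure D2:**
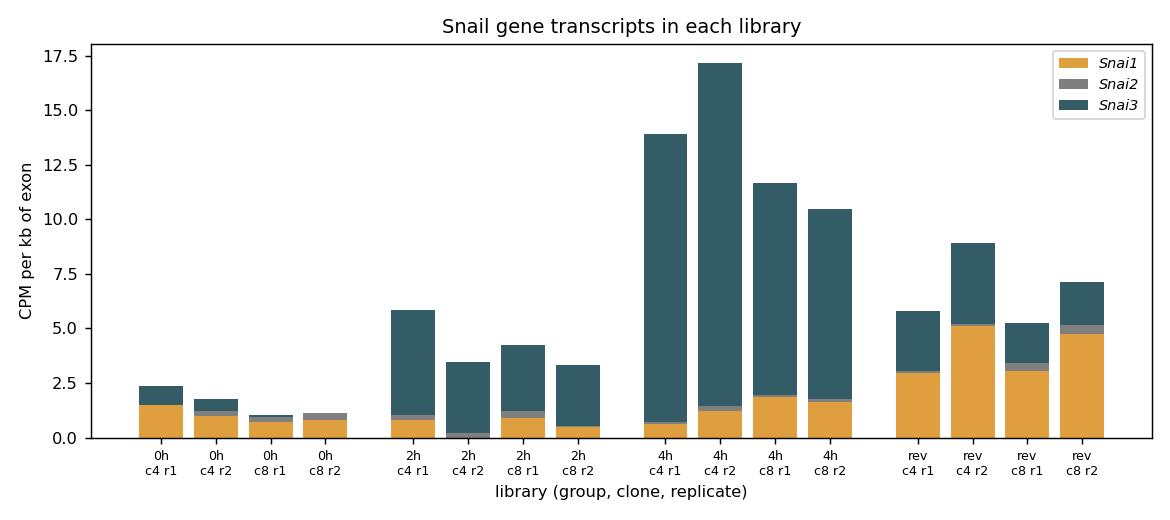
Summed level of the 3 Snail genes in each library, in CPM per kb of exon on a linear axis from 0, with the stacked parts of Snai1, Snai2 and Snai3. Labels give group, clone (c) and replicate (r): Snai3 fills most of each 2h and 4h bar, and Snai1 the larger part of each rev bar.

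Zeb1 (ENSMUSG00000024238, GRCm38 chr18:5591860-5775467, plus strand), a repressor that is held down by miR-200 microRNAs in epithelia, was the most abundant of the 5 repressors per kb at 0h. It had 22.0 and 18.1 CPM in clone 4 and 15.8 and 20.6 CPM in clone 8 at 0h. At 2h it had 23.7 and 24.1 CPM in clone 4 and 22.0 and 24.0 CPM in clone 8. All 4 libraries at 2h lay above those at 0h, the nearest pair being 22.0 at both times. At 4h the clones lay apart, with 23.4 and 25.1 CPM in clone 4 and 17.7 and 17.4 CPM in clone 8. In rev all 4 libraries had 18.0 to 21.2 CPM.

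The mean of Zeb1 rose from 19.1 ± 2.77 CPM at 0h to 23.5 ± 0.954 CPM at 2h (log2FC 0.31, SE 0.10, edgeR adjusted p = 0.0310). That call was lost in 9 of 19 alternatives. Over all 19, the adjusted p (edgeR or DESeq2) ranged from 0.0104 to 0.770. Leaving out 1 library ended it in 4 cases: log2FC was 0.25 (edgeR adjusted p = 0.127) without 0h clone 4 replicate 2 and 0.25 (0.121) without 0h clone 8 replicate 1. It was 0.32 (edgeR adjusted p = 0.0600) without 2h clone 8 replicate 1 and 0.25 (0.135) without 2h clone 8 replicate 2. Zeb1 did not pass the test at 4h against 0h (log2FC 0.15, SE 0.11, edgeR adjusted p = 0.299) or in rev against 4h (log2FC -0.12, SE 0.11, edgeR adjusted p = 0.509). Its exons overlap those of Gm10125 on the other strand over 198 bases, 1.93% of their length, and the strand setting of the counting is not given in the sources used here. The 5 hairpin gene models of the miR-200 family (Mir200a, Mir200b, Mir200c, Mir141 and Mir429) had 0 counts in all 16 libraries, a measure of hairpins in total RNA libraries and not of mature microRNAs.

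Zeb2 (ENSMUSG00000026872, GRCm38 chr2:44983632-45117395, minus strand), the other Zeb repressor, had 0 to 8 counts per library and none in 4 of 16. At 0h it had 1 count in 1 of 4 libraries. At 4h it had 6 and 3 counts in clone 4 and 3 and 3 in clone 8, that is 0.350 to 0.789 CPM against 0 to 0.272 CPM at 0h. Of these 4 libraries, 3 stood at the floor of 3 counts, and the floor of 0h clone 4 replicate 1, 0.815 CPM, lies above every 4h value, so single libraries show no difference at this depth. The depth-scaled ratio of pooled counts was 14.6 for 4h against 0h (15 against 1 counts, 95% counting interval 2.24 to 614) and 12.8 for rev against 0h (11 against 1 counts, interval 1.87 to 553). At 2h the ratio was 6.50 (9 against 1 counts, interval 0.901 to 285). These intervals do not include the spread between libraries. Zeb2os on the other strand overlaps 3.27% of its exons.

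Cdh1 (ENSMUSG00000000303, GRCm38 chr8:106603351-106670246, plus strand) was the most abundant member in every group, with 756 to 7078 counts per library. At 0h it had 399 and 386 CPM in clone 4 and 473 and 502 CPM in clone 8. At 2h it had 339 and 331 CPM in clone 4 and 440 and 503 CPM in clone 8. Within clone 4, both libraries lay below those at 0h, while clone 8 overlapped. At 4h the values were 306 and 311 CPM in clone 4 and 426 and 475 CPM in clone 8, and in rev 363 and 352 CPM in clone 4 and 460 and 535 CPM in clone 8.

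Cdh1 fell from 440 ± 56.7 CPM at 0h to 380 ± 84.5 CPM at 4h, a ratio of means of 0.863 (log2FC -0.23, SE 0.07, edgeR adjusted p = 0.0149), with the groups overlapping across clones. The call was lost in 4 of 19 alternatives: with library size alone (-0.12, edgeR adjusted p = 0.829), without the clone covariate (-0.22, 0.378), with the share of the 8 models as covariate (-0.20, 0.0507) and without 0h clone 4 replicate 2 (-0.21, 0.0508). In rev, Cdh1 had 428 ± 86.8 CPM, which passed the test neither against 4h (log2FC 0.18, SE 0.07, edgeR adjusted p = 0.102) nor against 0h (log2FC -0.05, SE 0.07, edgeR adjusted p = 0.645). The 95% interval of the rev against 0h difference was -0.20 to 0.09 on the log2 scale. The change at 4h was -0.34 (SE 0.10) in clone 4 and -0.11 (SE 0.10) in clone 8, and this difference between clones did not pass the test (edgeR adjusted p = 0.541).

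Cdh2 (ENSMUSG00000024304, GRCm38 chr18:16588877-16809246, minus strand), which encodes N-cadherin, the cadherin of mesenchymal and neural cells, was a low-count gene with 2 to 53 counts per library. At 0h it had 2.17 and 2.39 CPM in clone 4 and 4.82 and 2.67 CPM in clone 8. At 4h it had 3.52 and 4.21 CPM in clone 4 and 6.65 and 3.16 CPM in clone 8. In rev it had 2.66 and 3.91 CPM in clone 4 and 5.47 and 11.3 CPM in clone 8. The groups overlapped, and the highest value came from the rev library in which the 8 abundant models took 80.4% of counts. Neither 4h against 0h (log2FC 0.66, SE 0.27, edgeR adjusted p = 0.0599) nor rev against 0h (log2FC 0.75, SE 0.28, edgeR adjusted p = 0.0502) passed the test. These values sat at the threshold: 4 of 19 alternatives called the first and 5 of 19 the second. For rev against 0h the log2FC was 0.95 without 0h clone 8 replicate 1 (edgeR adjusted p = 0.0285) and 0.95 without rev clone 4 replicate 1 (0.0236), and 0.48 without rev clone 8 replicate 2 (0.227). For 4h against 0h it was 0.86 without 0h clone 8 replicate 1 (edgeR adjusted p = 0.0270) and 0.86 without 4h clone 8 replicate 2 (0.0161), and without 0h clone 8 replicate 2 it was 0.43 and not called.

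Cdh3 (ENSMUSG00000061048, GRCm38 chr8:106510891-106557297, plus strand), encodes P-cadherin. Its group means were 27.0 ± 5.67, 24.0 ± 6.83, 24.5 ± 6.39 and 22.8 ± 4.25 CPM at 0h, 2h, 4h and rev (SD, n = 4), and the groups overlapped. None of its comparisons between groups passed the test, the nearest being rev against 0h (log2FC -0.25, SE 0.11, 95% interval -0.46 to -0.04, edgeR adjusted p = 0.0881). Without 0h clone 8 replicate 1, that comparison was called (-0.31, edgeR adjusted p = 0.0474). Epcam (ENSMUSG00000045394, GRCm38 chr17:87635979-87651129, plus strand), an adhesion protein of epithelia and pluripotent cells, had 26.1 ± 2.74, 23.9 ± 3.53, 26.9 ± 1.98 and 23.2 ± 1.66 CPM over the same groups. Its 4h against 0h difference was 0.01 (SE 0.10, 95% interval -0.19 to 0.21, edgeR adjusted p = 0.937), and for rev against 4h it was -0.23 (SE 0.11, edgeR adjusted p = 0.150).

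Within each library, Cdh1 made up 93.1% ± 0.504 (4h) to 94.1% ± 0.209 (rev) of the 3 cadherins per kb, and Cdh2 0.348% ± 0.140 (2h) to 0.685% ± 0.308 (rev). The log2 ratio of Cdh2 to Cdh1 counts, with 1 count added to each, was -7.17 ± 0.41 (mean ± SD, n = 4) before induction and -7.21 ± 0.52 after 2 h. It was -6.41 ± 0.50 in the 4h libraries and -6.33 ± 0.62 in rev. The ranges overlapped, from -7.50 to -6.57 at 0h and from -7.12 to -5.96 at 4h. E-cadherin mRNA thus remained the dominant classical cadherin transcript of the 3 in every library.

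**Figure D3:**
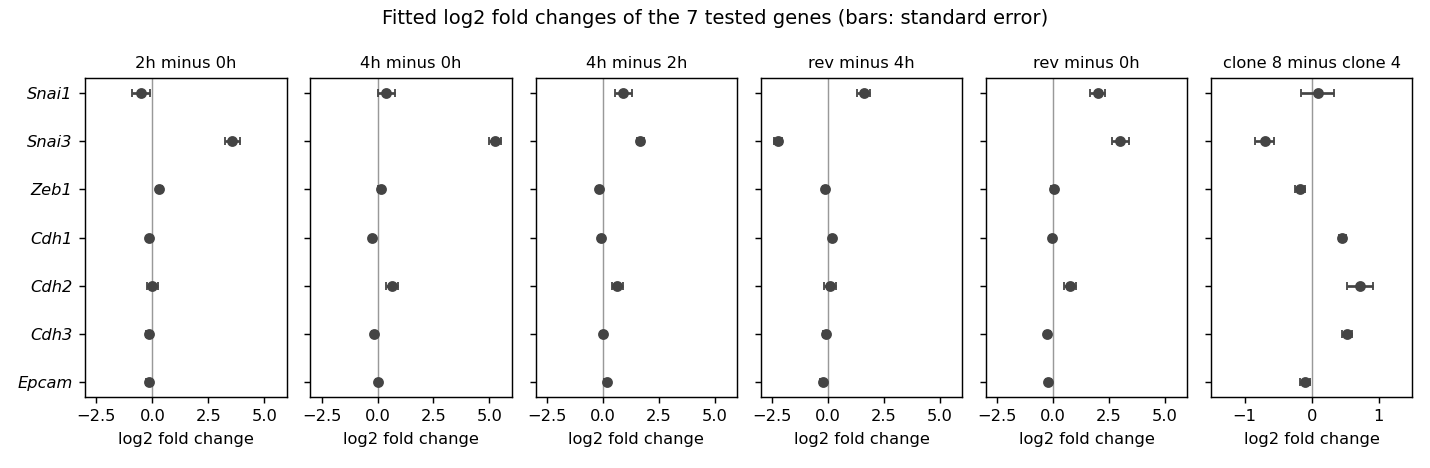
Fitted log2 fold change of the 7 tested genes in 5 comparisons of groups and between the clones (separate scale), with bars of 1 standard error. Snai3 lies farthest from 0 in the 5 comparisons of groups, and the 3 cadherins lie above 0 for clone 8 against clone 4.

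Snai3 is left out of the counts of calls, since it was selected on its values. Of the other 6 tested genes, 1 was called at 2h against 0h, Zeb1, which was higher, where 11.4% of all 12215 tested genes were called higher and 9.68% lower. At 4h against 0h 1 was called, Cdh1, which was lower, beside 17.2% of all genes higher and 16.8% lower. At 4h against 2h, edgeR called 0 of the 6, as did DESeq2, with 2 at an unadjusted p under 0.05 in edgeR (3.8% of all genes were higher and 3.52% lower). Snai1 alone was called in rev, higher against 4h (7.93% of all genes higher, 8.43% lower) and against 0h (12.4% higher, 9.86% lower). The comparisons with a shared group are not independent of each other. Groups that do not overlap were found for Zeb1 at 2h against 0h (8.83% of all genes, higher) and for Snai1 in rev against 4h (6.48%, higher) and against 0h (9.59%, higher). The groups of Snai3 did not overlap in 5 of 5 comparisons, as a description of the values it was selected on, and the shares of all genes in its direction were 12.3% at 4h against 0h, 4.32% at 4h against 2h and 6.79% (lower) in rev against 4h, from which nothing is read.

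The clones differed in cadherin level. Over all groups, Cdh1 was 306 to 399 CPM in clone 4 (median 346, n = 8) and 426 to 535 CPM in clone 8 (median 474, n = 8), so the clones did not overlap. Cdh3 was 17.7 to 22.8 CPM in clone 4 (median 19.4) and 23.7 to 34.4 CPM in clone 8 (median 28.8), again without overlap. In the fit with group and clone, Cdh1 was higher in clone 8 by 0.46 (log2, SE 0.05, edgeR adjusted p = 1.63e-08), Cdh3 by 0.53 (SE 0.07, 1.09e-06) and Cdh2 by 0.72 (SE 0.20, 0.00505). That is 3 of the 6 tested genes other than Snai3 called higher, where 15.4% of all genes were called higher and 13.7% lower. The fitted contrast of Snai3, a description, was -0.70 (SE 0.14). Both clone 8 libraries lay above both clone 4 libraries in 4 of 4 groups for Cdh1 and Cdh3 and in 3 of 4 for Cdh2, and below in 4 of 4 for Snai3. Of all genes, 6.53% lay above and 4.64% below in all 4 groups. The shares of all genes for 3 of 4 groups, and for clones without overlap over all groups, were not computed.

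The cadherin calls between the clones depended on the scaling. With library size alone they were 0.19 for Cdh1 (edgeR adjusted p = 0.395), 0.27 for Cdh3 (0.243) and 0.45 for Cdh2 (0.138), and the median of all genes was then -0.26 against -0.01 with TMM. Zeb1 (log2 -0.17, SE 0.08, edgeR adjusted p = 0.0947), Snai1 (0.09, SE 0.24, 0.829) and Epcam (-0.10, SE 0.07, 0.317) did not pass the test between the clones. With 2 clones and no other label, the clone and anything handled with it cannot be told apart. In edgeR tests of the response between clones, none of the 6 tested members other than Snai3 was called for either time of induction against 0h or for rev against 4h. At an unadjusted p under 0.05 there were 0, 1 and 0 members (2h, 4h and rev in turn), the 1 being Snai1. These tests called 0.0901%, 0.311% and 0.00819% of all genes, and no other tool was run on them.

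Genes whose log2 CPM went most like a member's over the 16 libraries were found among 8646 genes with a mean of at least 5 CPM, as a description. For Snai1 these were Sall3 (r = 0.936), Irf2bp1 (0.877) and Ankrd13b (0.871). Sall3 had 11.7 ± 0.936, 8.47 ± 1.88, 12.9 ± 0.568 and 20.7 ± 1.74 CPM at 0h, 2h, 4h and rev. For Snai3 they were Serpinb9b (r = 0.957), N4bp3 (0.956) and Wsb2 (0.948), and N4bp3 had 11.7 ± 2.09, 26.2 ± 6.14, 38.1 ± 4.93 and 21.1 ± 0.576 CPM. For Cdh1 they were Akap12 (r = 0.981), Mical3 (0.970) and Tpi1 (0.958), and for Cdh3 Setd5, Scn3a and Ide (0.933, 0.933 and 0.928). The libraries share group, clone and depth, and the 3 genes most like Epcam (Hmgn1, Suclg1 and Rpl14, 0.799 to 0.818) reached lower values.

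Other transcription factors of EMT were measured beside the Snail and Zeb genes, and 9 of 13 were tested. At 4h against 0h, 4 were higher and 2 lower, beside 17.2% and 16.8% of all genes, with a median log2FC of 0.14 against -0.02 for all genes. Eomes, a T-box factor of the primitive streak, went from 3.85 ± 1.06 to 7.46 ± 2.00 CPM (log2FC 0.98, SE 0.19, edgeR adjusted p = 0.000155), and Klf8 from 44.1 ± 4.64 to 28.0 ± 3.94 CPM (log2FC -0.67, SE 0.09, 5.75e-07). The other 3 that rose, named after their values were seen, were Tbxt, the primitive streak factor Brachyury (1.74 ± 1.30 to 10.1 ± 5.53 CPM, log2FC 2.54), Twist1 (1.53 ± 0.387 to 7.98 ± 1.89 CPM, 2.41) and Sox4 (1.80 ± 0.647 to 7.51 ± 1.24 CPM, 2.03). The other that fell was Gsc (3.76 ± 1.35 to 1.30 ± 1.23 CPM, -1.40). Each of these genes had its lower mean near the floor of 3 counts, which was 0.213 to 1.35 CPM depending on the library. In rev against 4h the directions were turned: Gsc and Klf8 were higher and Eomes, Twist1, Sox4 and Tbxt lower. Snai3, Tbxt, Twist1, Sox4 and Eomes thus had their highest mean at 4h, and Snai1 and Gsc (5.76 CPM) in rev. The 5 mesoderm and primitive streak markers, which include Tbxt and Eomes, summed to 7.24 to 10.6 CPM before induction and 7.13 to 11.3 in rev, with 8.52 to 16.6 CPM in the 2h libraries and 16.6 to 26.4 CPM in the 4h libraries. Tbxt and Eomes carried most of that sum. Mixl1 was not called at 4h against 0h (1.21 ± 0.541 and 2.26 ± 1.04 CPM), Tbx6, under the filter, had 1.40 ± 0.442 and 0.544 ± 0.357 CPM, and Mesp1 was at or near 0 in every group. Of 5 trophoblast markers, 2 were tested, and they went opposite ways at 4h against 0h. Tfap2c fell from 38.9 ± 7.22 to 23.8 ± 3.74 CPM (log2FC -0.73, edgeR adjusted p = 3.76e-07), and Cdx2 rose from 1.32 ± 1.45 to 4.73 ± 4.16 CPM (1.95, 2.21e-05). Of 3 neural markers tested, 1 was called, Pax6, which rose from 0.839 ± 0.907 to 2.27 ± 1.81 CPM (1.63, edgeR adjusted p = 0.00323). Cdx2, Pax6, Mixl1 and Tbx6 are named after their values were seen. The 5 trophoblast markers summed to 32.8 to 50.1 CPM in the 0h libraries and 22.2 to 37.7 CPM in the 4h libraries, and the 4 neural markers to 26.1 to 42.3 and 28.0 to 34.4 CPM. The part of such cells in the Snail values was not tested.

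Epithelial regulators were few: 5 of 9 were tested. Elf3, an epithelial ETS factor, fell from 88.8 ± 7.36 CPM at 0h to 24.5 ± 7.31 CPM at 4h (log2FC -1.93, SE 0.11, edgeR adjusted p = 1.83e-15) and rose again to 65.5 ± 3.20 CPM in rev (log2FC 1.49, SE 0.12, 1.29e-11). Grhl3, a grainyhead factor, rose at 4h from 9.54 ± 1.38 to 13.5 ± 3.16 CPM (log2FC 0.52, SE 0.14, edgeR adjusted p = 0.00414). Esrp2, a splicing regulator of epithelia, was higher in rev than at 4h (14.0 ± 1.14 against 10.4 ± 2.14 CPM, log2FC 0.49, SE 0.14, edgeR adjusted p = 0.0142).

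Catenins and their partners link the cadherins to the actin cytoskeleton. Of 10 such adherens junction genes tested, 2 were higher and 1 lower at 4h against 0h (median log2FC -0.04), where 17.2% of all genes were higher and 16.8% lower, and 7 were not called. Vcl, which encodes vinculin, rose from 41.7 ± 5.91 to 66.8 ± 8.84 CPM (log2FC 0.67, SE 0.10, edgeR adjusted p = 1.37e-06) and Ctnna1, alpha-catenin, from 179 ± 13.7 to 224 ± 6.26 CPM (0.32, SE 0.07, 0.000471). Nectin2, a nectin of the same junctions, fell from 47.4 ± 7.96 to 35.0 ± 4.48 CPM (log2FC -0.42, SE 0.09, edgeR adjusted p = 0.000231). Of 10 desmosome and keratin genes tested, 1 was higher and 1 lower, and Jup, plakoglobin, rose from 49.9 ± 8.93 to 88.2 ± 13.6 CPM (log2FC 0.83, SE 0.08, edgeR adjusted p = 1.87e-10). Evpl, named after its values were seen, fell (-1.37). Of 18 other cadherins, 16 were under the filter, and the 2 tested, Cdh4 (5.27 ± 1.37 and 5.69 ± 2.44 CPM at 0h and 4h) and Cdh24 (3.89 ± 0.767 and 2.36 ± 0.543 CPM), were not called.

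Of 17 tight junction and polarity genes tested, 2 were higher and 3 lower at 4h against 0h (median log2FC -0.02), near the 17.2% and 16.8% of all genes. Cldn4, a claudin, fell from 23.8 ± 5.67 to 16.4 ± 7.62 CPM at 4h (log2FC -0.59, SE 0.11, edgeR adjusted p = 0.000117) and was at 25.3 ± 7.32 CPM in rev (0.68 against 4h, SE 0.12, 6.17e-05). Tjp3 fell by 0.69 on the log2 scale (SE 0.19, edgeR adjusted p = 0.00497). Among the genes that process or bind EpCAM, 3 of 9 were higher and 1 lower. Spint1, a protease inhibitor, rose from 47.3 ± 14.8 to 64.8 ± 8.16 CPM (log2FC 0.48, SE 0.09, edgeR adjusted p = 7.57e-05), and St14, the protease matriptase, fell from 43.8 ± 6.51 to 33.6 ± 4.85 CPM (-0.38, SE 0.09, 0.00117).

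Of 18 mesenchymal genes, 9 were tested, and 3 of them were higher and 0 lower at 4h against 0h (median log2FC 0.37), beside 17.2% and 16.8% of all genes. Vim, which encodes the intermediate filament vimentin, rose from 31.6 ± 8.69 to 56.7 ± 11.3 CPM (log2FC 0.87, SE 0.09, edgeR adjusted p = 1.34e-09), and Sparc from 115 ± 20.6 to 154 ± 35.3 CPM (0.42, SE 0.07, 2.23e-05). The third, Mmp14, is named after its values were seen (0.62, edgeR adjusted p = 0.0486). Sparc, Vim and Fstl1 were lower in rev than at 4h, by 0.28, 0.28 and 0.48 on the log2 scale in that order of genes. Genes for the turnover of Snail protein and for its corepressors were all tested, 20 of 20, with 7 higher and 2 lower at 4h against 0h (median log2FC 0.11), beside the same shares of all genes. Ctbp2, a corepressor, rose from 53.2 ± 4.07 to 90.7 ± 11.2 CPM (log2FC 0.76, SE 0.07, edgeR adjusted p = 1.11e-10) and Rcor1, a scaffold of histone deacetylase complexes, from 30.7 ± 1.86 to 49.0 ± 3.85 CPM (0.69, SE 0.09, 1.05e-07). Btrc, the ubiquitin ligase adaptor that targets phosphorylated Snail, fell from 33.9 ± 3.29 to 21.9 ± 0.358 CPM (log2FC -0.66, SE 0.10, edgeR adjusted p = 3.25e-06). Fbxl14 and Fbxo11, adaptors of other ubiquitin ligases that target Snail, rose (0.57 and 0.25, edgeR adjusted p = 1.71e-06 and 0.0133), and are named after their values were seen. Csnk1e, a casein kinase, fell from 42.0 ± 6.69 to 33.8 ± 5.38 CPM (-0.32, SE 0.09, edgeR adjusted p = 0.00709). In rev against 4h, Ctbp2 and Rcor1 were lower again (-0.41 and -0.32, edgeR adjusted p = 5.65e-05 and 0.00889).

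**Figure D4:**
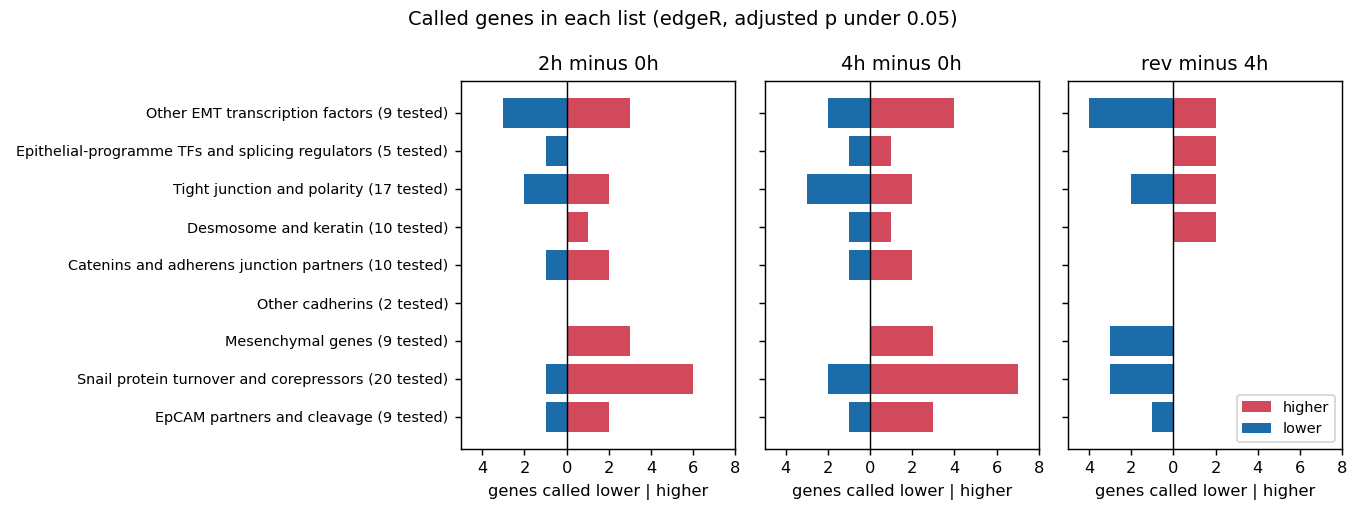
Number of genes called higher (right of 0) and lower (left of 0) by edgeR in each list around the Snail, Zeb and cadherin genes, for both times of induction against 0h and for rev against 4h. The number tested stands beside each list name; at 4h against 0h, 7 of the 9 lists held calls in both directions.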

How the data were processed

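The authors deposited unnormalized counts of reads for each gene: all values are whole, and library totals differ. Total RNA was used after ribosomal RNA depletion, per the labels' protocols. The submitters' processing notes name bcl2fastq 2.19.1, STAR 2.5.3a and the build mm10, and the counting tool, annotation and strand setting are not given in the sources used here. Identifiers were matched to GENCODE M21 (GRCm38), 52489 of 52636, and positions, exon lengths and overlaps are from it.

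Members and gene lists were chosen with earlier results of these data known. With edgeR 4.0.16 (limma 3.58.1, R 4.3.3), filterByExpr over the 4 groups (minimum count 10) left 12215 genes, which were scaled with TMM (factors 0.463 to 1.47). Group and clone were the terms of 1 quasi-likelihood fit over the 16 libraries. Contrasts were two-sided, p was adjusted by Benjamini-Hochberg over all genes tested (threshold 0.05), and a gene is called, or said to rise or fall, under that threshold. SE is the log2 fold change over the root of F, and 95% intervals are 1.96 SE each way. A second fit, with a mean for each of the 8 combinations of group and clone, gave differences in response between clones. Library totals were 2172651 to 12680303 counts, and the intervals on pooled counts and the floor of 3 counts cover counting error only.

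Named are all members, of each list at most 2 genes in each direction with the largest change among those called and at a mean of at least 5 CPM, the 3 genes most like a member, and the nearest protein-coding genes. Others are named where said, and some genes that the rule names are not reported here. Alternatives were RLE factors, library size alone, TMM without the 8 most abundant models, no filter, a mean of 1 CPM as filter, no clone covariate, a replicate block, only the 2 groups compared, DESeq2 1.42.0 and leaving out each library. Chosen after seeing the data were the share of the 8 models as covariate and leaving the shallowest library out of every comparison.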

Additional observations from a re-analysis of the deposited data

Results flagged for a closer look

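Zeb2 had 0.272 CPM in 0h clone 4 replicate 1, from 1 count, and 0 CPM in the other 3 libraries at 0h. It stands out because the gap between that library and the others is the whole range of the group. Of 40 groups of 4 libraries tested in this way, 1 stood out, and chance alone gives about 1 in 20.

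Zeb1 went in opposite directions in the clones between 4h and rev: both clone 4 libraries were lower in rev (log2FC -0.26, SE 0.13) and both clone 8 libraries higher (0.11, SE 0.17). The difference of 0.37 (SE 0.22, edgeR adjusted p = 0.876) did not pass the test.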

How the results depend on the processing

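The rise of Snai1 in rev, against 4h and against 0h, kept its direction and its call in 19 of 19 alternatives. With library size alone, 204 genes were called higher and 134 lower at 2h against 0h, 554 and 327 at 4h against 0h, and 88 and 12 at 4h against 2h. For rev against 4h it called 57 genes higher and 1671 lower, in place of 969 and 1030, with the median of all genes at -0.41, and for rev against 0h it called 105 higher, with the median at -0.32. Of the members, Snai3 counted, it then called 1 higher at 2h, 0 lower at 4h, 2 lower in rev against 4h (Epcam added, -0.66) and 0 higher in clone 8. Differences that turned were Cdh2 at 2h (-0.025), Cdh1 at 4h against 2h (0.0036), Cdh1 and Cdh2 in rev against 4h (-0.26 and -0.32), Zeb1 in rev against 0h (-0.29) and Snai1 between the clones (-0.25). The differences in response between the clones that turned were those of Zeb1 at 2h (-0.046), Cdh1 at 4h (-0.41) and Epcam at 4h (-0.65). Of the 34 genes of the lists called at 4h against 0h, 34 kept their direction and 14 their call. In rev against 4h, 21 of 21 kept their direction and 15 their call, at 2h 28 of 28 and 4, and at 4h against 2h 12 of 12 and 4. In rev against 0h, 19 of 22 kept their direction and 8 their call, and Ctnna1, Pard3 and Spint1 turned. The cause of these shifts was not tested.

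Without the low-count filter, 3 members were higher at 4h and 4 in rev against 0h (Zeb2 and Cdh2 added), and Cdh3 at 4h against 2h was -0.024. Without the clone term, 747 genes were higher and 462 lower at 2h, 1323 lower at 4h, 129 higher and 90 lower at 4h against 2h, 418 higher and 463 lower in rev against 4h, and 876 and 576 in rev against 0h. Of the members, 1 was then higher at 2h and 0 lower at 4h, and Cdh3 at 4h against 2h was -0.055. Fits of only the groups compared and DESeq2 each called 1 member higher at 2h, and DESeq2 put Cdh2 there at -0.029. With the share of the 8 models as covariate, 1 member was higher at 2h, 2 were higher and 0 lower at 4h, 2 were higher at 4h against 2h (Snai1 added, 1.10), 577 genes were higher and 652 lower in rev against 4h, and Cdh2 there was -0.15. Without the shallowest library, Cdh3 at 4h against 2h was -0.0026. The causes were not tested.

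Leaving out 1 library gave 743 (0h clone 8 replicate 2) to 1203 genes lower at 2h and 644 (4h clone 4 replicate 1) to 919 higher in rev against 4h. For 4h against 2h it gave 303 to 422 higher, with the fewest without 2h clone 4 replicate 1 and 306 without 4h clone 4 replicate 2. It gave 260 to 379 lower, with 278 or fewer without either of these, 4h clone 4 replicate 1 or 4h clone 8 replicate 1. Members called ranged from 1 to 2 higher at 2h, 1 to 2 higher and 0 to 1 lower at 4h, 1 to 2 higher at 4h against 2h (Cdh2 added at 0.87 without 4h clone 8 replicate 2), and 0 to 1 lower in rev against 0h. Between clones, 1 to 2 were lower, Zeb1 being added (-0.22) without 0h clone 8 replicate 2. Uncalled differences whose sign turned ranged from -0.25 to 0.22 for Cdh2 at 2h, -0.054 to 0.086 for Epcam at 4h, -0.070 to 0.12 for Cdh3 at 4h against 2h, -0.14 to 0.32 for Cdh2 in rev against 4h, -0.040 to 0.13 for Zeb1 in rev against 0h and -0.047 to 0.25 for Snai1 between clones.

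Deviations of same-numbered libraries of a clone had a mean r of 0.0132 (from -0.318 to 0.210 over 12 pairs, 4 of them over 0.1). In clone 8, r was 0.210 for 0h and 2h, 0.130 for 0h and 4h and 0.178 for 2h and 4h. In clone 4, r was 0.103, -0.318 and -0.165 for the same pairs. With 2 replicates per clone and group, this check cannot decide whether the numbers pair the samples. With the replicate block, 2072 genes were higher and 1996 lower at 4h against 0h. The same fit called 937 and 1012 for rev against 4h, and no member call changed. Snai2 and Zeb2, with at most 8 counts per library, are limited by depth.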
